A study of Sus scrofa with 12 samples.

Results

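The genes described here are 6 that mark Schwann cells and cardiac nerves, PMP22, CDH19, NGFR, GFRA3, SCN7A and NCAM1, out of 35682 genes counted in pig heart tissue. They were chosen by name, as genes of peripheral glia and nerves, under a rule that uses no measured value, but with earlier results of these data known. Each was found by matching its pig symbol to 1 gene identifier of the count files, and all 6 had enough counts to be tested. Counts were scaled to CPM, a gene's reads relative to the size of its library, with TMM factors, which correct the library totals for differences in composition between libraries.

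The heart receives sympathetic, parasympathetic and sensory fibres that run through its wall in small bundles. Schwann cells are the glia of these peripheral nerves: they ensheathe axons, some of them with myelin, and after a nerve is damaged they can leave that state and turn on repair genes, among them the neurotrophin receptor NGFR and the adhesion molecule NCAM1. The cell bodies of the sympathetic neurons lie in ganglia outside the ventricle, so that ventricular tissue holds their axons and glia but few of their transcripts. A bulk library of ventricle therefore reads nerve tissue mainly through its glia, as a small share of all RNA.

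Left ventricle was sampled from 6 Yorkshire pigs, all female and 10 to 12 weeks old by the study's methods, in which the left anterior descending artery had been occluded by a balloon for 60 min and reopened. From day 9 all animals were given tacrolimus at 0.75 mg/kg/day, mycophenolate mofetil at 500 mg/day and prednisolone at 20 mg/day, and at a left thoracotomy on day 14 they received fibrin glue, either with vascular organoids of human endothelial progenitor and smooth muscle cells or alone. The labels do not tie the animals to these arms, so each region holds animals whose arm was not used, and no comparison of the arms was made. Hearts were taken 4 weeks after the thoracotomy, and each animal gave 1 border zone library, from tissue beside the infarct, and 1 remote zone library, from the posterior wall, both at the mid level. The animals are named here by their numbers, 1022, 1322, 1323, 1623, 1922 and 3622.

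Border zone libraries held 15130210 to 30526110 counts each, against 20091415 to 31618680 for remote zone libraries. Mitochondrial genes took 5.69% to 17.3% of the counts in border zone libraries and 13.6% to 33.5% in remote zone libraries. The regions were compared with edgeR, by its quasi-likelihood test and Benjamini-Hochberg adjustment over all 13844 genes that passed its filter on low counts, and a gene was called at an adjusted p under 0.05. Of these genes, 285 were called higher in the border zone and 2 lower, which together is 2.07% of those tested. The balance of directions depended on the test, since the Wald test of DESeq2 called 1186 higher and 290 lower. The median log2 fold change over all genes tested was 0.04. The border zone library of animal 1022 stood apart from the others, with the highest fibroblast, macrophage and smooth muscle marker levels and the lowest cardiomyocyte marker level, and that of animal 3622 had the lowest total but counts on 28024 genes, the most of any library. In bulk tissue, fewer cells of a type and less RNA per cell cannot be told apart, and this holds for each difference below.

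The tissue was checked against markers of Schwann cells and nerves. SOX10, the transcription factor that defines the Schwann cell lineage, was counted in all 12 libraries, at 1.60 to 11.9 CPM. ERBB3, the receptor through which Schwann cells read axonal neuregulin, was counted in all 12 as well, at 1.60 to 10.1 CPM. MBP, a myelin protein, lay between 3.53 and 32.8 CPM. The noradrenaline-synthesis genes TH and DBH and the peptide gene NPY were at or near 0. TH, the enzyme that starts catecholamine synthesis, had 1 read in all 12 libraries together. DBH, which makes noradrenaline, had 5 reads, and NPY, a sympathetic co-transmitter, had 4. Other genes of the neuron list were measured: SLC18A2, a vesicular monoamine transporter, lay at 2.86 to 8.96 CPM, HAND2, a transcription factor of sympathetic neurons and of the heart itself, at 27.2 to 101 CPM, and SLC6A2, the noradrenaline transporter, reached 1.02 CPM in the border zone and 0.260 CPM in the remote zone. These 3 were named after their values were seen. A count of 0 in a library allows up to 0.0883 to 0.201 CPM, depending on its depth, with 3 counts taken as the limit. S100B, another glial marker, was not analysed here.

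The 250 bases before the annotated start of 4 of the genes are shown, because they are the genes whose values are set against each other below: NGFR, the gene called, PMP22 and GFRA3, whose values ran together, and CDH19, for which no difference between regions was found. Sequences are from the RefSeq annotation of Sscrofa11.1, each 5′ to 3′ on the strand of its gene. NGFR (ENSSSCG00000017548) starts on the plus strand of chromosome 12 and its window is chr12:25699160-25699409. PMP22 (ENSSSCG00000037832) lies on the minus strand of the same chromosome, with the window chr12:58734196-58734445. GFRA3 (ENSSSCG00000014329) lies on the minus strand of chromosome 2, with the window chr2:140283228-140283477, and CDH19 (ENSSSCG00000004885) on the plus strand of chromosome 1, with the window chr1:155669111-155669360. Capitals mark ACAAAG, a core that SOX family factors recognise, on either strand.
NGFR: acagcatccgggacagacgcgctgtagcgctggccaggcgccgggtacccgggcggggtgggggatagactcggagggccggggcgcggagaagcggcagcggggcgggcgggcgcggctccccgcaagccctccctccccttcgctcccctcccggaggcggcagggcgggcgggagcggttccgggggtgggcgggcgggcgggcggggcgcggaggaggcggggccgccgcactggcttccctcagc
PMP22: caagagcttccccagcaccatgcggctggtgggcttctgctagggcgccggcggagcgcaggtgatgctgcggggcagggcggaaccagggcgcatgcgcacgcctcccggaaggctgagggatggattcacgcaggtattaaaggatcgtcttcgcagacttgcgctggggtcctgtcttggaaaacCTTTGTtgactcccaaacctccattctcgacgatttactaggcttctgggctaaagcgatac
GFRA3: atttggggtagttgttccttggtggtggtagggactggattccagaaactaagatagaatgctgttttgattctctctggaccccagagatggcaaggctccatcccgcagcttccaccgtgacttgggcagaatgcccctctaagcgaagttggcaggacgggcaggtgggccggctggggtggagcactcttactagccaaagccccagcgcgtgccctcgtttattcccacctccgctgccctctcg
CDH19: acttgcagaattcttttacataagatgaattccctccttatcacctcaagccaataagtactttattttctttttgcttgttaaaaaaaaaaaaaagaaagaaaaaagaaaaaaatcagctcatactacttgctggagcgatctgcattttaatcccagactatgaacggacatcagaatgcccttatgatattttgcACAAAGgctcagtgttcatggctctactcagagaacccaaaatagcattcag

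The windows differ widely in base composition. The NGFR window holds 80.8% G and C and that of CDH19 34.8%, against a median of 57.6% over 19556 promoters of this length. PMP22 has 60.0% and GFRA3 57.6%. NCAM1, on the plus strand of chromosome 9, has 50.4% and SCN7A, on the minus strand of chromosome 15, has 56.0%. ACAAAG was found in CDH19, 52 bases before the start, and in PMP22, 62 bases before the start and on the opposite strand, and in none of the other 4 windows; 12.1% of all promoters of this length hold it. AACAAT, another SOX core, and TGANTCA, the site of AP-1 factors such as JUN, were searched on both strands and matched in none of the 6 windows, against 7.07% and 5.27% of all promoters. A single motif matched, so no matches overlapped. A match is a description of letters and not a binding site.

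NGFR was higher in the border zone by 5.73-fold and was the 1 of 6 genes that was called, where 2.07% of all genes were. NGFR is the low-affinity receptor shared by the neurotrophins, and is known in Schwann cells that have lost contact with an axon, as well as in some pericytes and mesenchymal cells. In the border zone its level was 53.0 CPM in animal 1022, 5.02 in 1322, 21.6 in 1323, 9.34 in 1623, 14.9 in 1922 and 19.8 in 3622. In the remote zone it was 3.64, 1.16, 3.36, 4.62, 2.65 and 6.22 CPM in the same order. The border zone was higher in 6 of 6 animals, by 2.02-fold in animal 1623 at the least and 14.6-fold in animal 1022 at the most. The groups overlapped through 1 library, since the border zone of animal 1322 lay below the remote zone of animal 3622, and the other 5 border zone libraries lay above all remote ones. The log2 fold change was 2.52 with a standard error of 0.52 (adjusted p = 0.0320 by edgeR), and 207 of the genes tested, or 1.5%, had a larger one. With the animal as a block, which compares the regions within each pig, the log2 fold change was 2.30 with a standard error of 0.35 (adjusted p = 0.0476), beside 0.296% of all genes called in that fit.

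The counts behind these values were moderate: 103 to 1605 NGFR reads per border zone library and 24 to 121 per remote zone library. The lowest count, 24 in the remote zone of animal 1322, has an exact 95% Poisson interval of 15.4 to 35.7, which like all such intervals here covers counting error and not the difference between animals. Animal 1022 alone gave 42.9% of the NGFR level summed over border zone libraries. Without that library the log2 fold change was 1.97 (adjusted p = 0.0263 by edgeR), and without the border zone library of animal 3622 the adjusted p was 0.0496. The call depended on which animal was left out: with both libraries of 1 animal removed, it held without animal 1322 (adjusted p = 0.0291) and was lost without any of the other 5, with adjusted p between 0.0646 and 0.135 and log2 fold changes of 1.97 to 2.77.

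**Figure D1:**
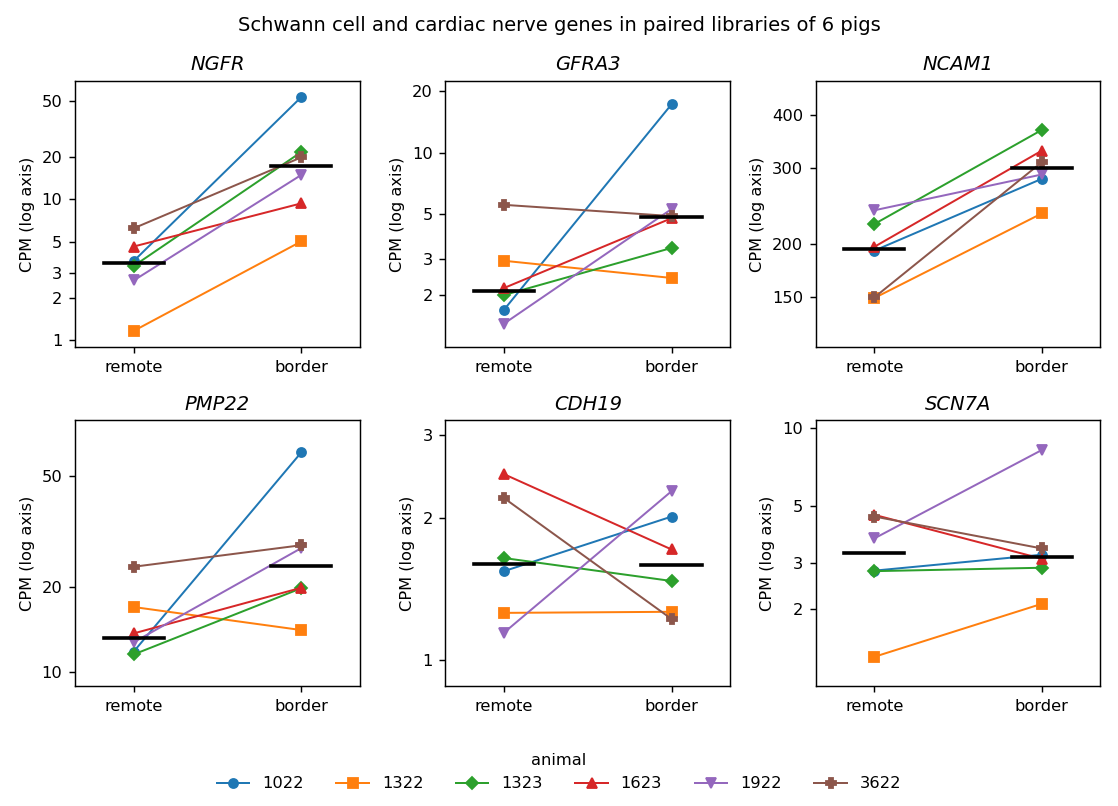
Level of each gene in CPM, on log axes that differ between panels, in the remote and border zone libraries of 6 pigs; each coloured line joins the libraries of 1 animal and each black bar is the median of a region. All 6 lines of NGFR and NCAM1 slope up to the border zone, while the lines of CDH19 and SCN7A cross, and the border zone library of animal 1022 is the highest for NGFR, GFRA3 and PMP22.

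NCAM1 was also higher in the border zone in 6 of 6 animals, but was not called. NCAM1 is a cell adhesion molecule of neurons and of Schwann cells that carry no myelin, and it is also known in heart muscle cells and, in humans, in natural killer cells. Its border zone level was 283 CPM in animal 1022, 235 in 1322, 368 in 1323, 330 in 1623, 290.1 in 1922 and 310 in 3622. Its remote zone level was 193, 149, 222, 197, 239 and 150 CPM in the same order. The border zone library of animal 1322 lay below the remote zone library of animal 1922, and the other 5 border zone libraries lay above all remote ones. The within-animal ratio was between 1.21 in animal 1922 and 2.07 in animal 3622. The fitted fold was 1.58, with a log2 fold change of 0.66 and a standard error of 0.18 (adjusted p = 0.0610 by edgeR), and with the animal as a block it was 0.67 (adjusted p = 0.0798). The values of NCAM1 spread little within a region: the highest border zone library was 1.57 times the lowest, against 10.6 times for NGFR. No border zone library dominated, and the highest, of animal 1323, held 20.3% of the summed level.

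PMP22 encodes a membrane protein of compact myelin that is also made by fibroblasts. Its border zone level was 60.5 CPM in animal 1022, 14.1 in 1322, 19.8 in 1323, 19.9 in 1623, 27.6 in 1922 and 28.2 in 3622. Its remote zone level was 11.8, 17.0, 11.5, 13.7, 12.7 and 23.7 CPM in the same order. The border zone was higher in 5 of 6 animals, with animal 1322 the exception, and the groups overlapped. The log2 fold change of 0.91 with a standard error of 0.32 did not pass (adjusted p = 0.116 by edgeR), nor did 0.79 with the animal as a block (adjusted p = 0.137). Animal 1022 gave 35.6% of the sum over border zone libraries, and without its border zone library the log2 fold change was 0.54.

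GFRA3 is the co-receptor for artemin, a ligand of the GDNF family, and is found on sensory and sympathetic neurons and on Schwann cell precursors. Its border zone level was 17.2 CPM in animal 1022, 2.43 in 1322, 3.41 in 1323, 4.77 in 1623, 5.29 in 1922 and 4.89 in 3622. Its remote zone level was 1.70, 2.95, 2.01, 2.17, 1.46 and 5.55 CPM in the same order. It was higher in the border zone in 4 of 6 animals, with animals 1322 and 3622 the exceptions, and the remote library of animal 3622 lay above all border zone libraries but that of animal 1022. The log2 fold change was 1.28 with a standard error of 0.47 (adjusted p = 0.131 by edgeR), and 1.07 with the animal as a block (adjusted p = 0.173). It rested largely on 1 library: the border zone of animal 1022 held 45.3% of the summed level, and without it the log2 fold change was 0.66. Border zone libraries had 50 to 521 reads and remote zone libraries 28 to 83.

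CDH19, a cadherin found in few cells other than Schwann cells and their precursors, showed the smallest difference of the 6. Its border zone level was 2.02 CPM in animal 1022, 1.27 in 1322, 1.47 in 1323, 1.72 in 1623, 2.28 in 1922 and 1.22 in 3622. Its remote zone level was 1.54, 1.26, 1.65, 2.48, 1.14 and 2.21 CPM in the same order. The border zone was higher in 3 of 6 animals, and the ranges of both regions nearly coincide. The log2 fold change was -0.04 with a standard error of 0.29 (adjusted p = 0.947 by edgeR), and it took either sign when animals were left out, between -0.25 and 0.11, and was 0.25 with library totals. Counts were low, at 20 to 65 per library: the 20 reads in the border zone of animal 3622 have an exact 95% interval of 12.2 to 30.9 and the 33 in its remote zone one of 22.7 to 46.3, so the 1.80-fold difference of that animal lies within overlapping counting intervals.

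SCN7A encodes a sodium channel protein of glia and of some neurons that senses sodium and does not fire action potentials. Its border zone level was 3.24 CPM in animal 1022, 2.09 in 1322, 2.88 in 1323, 3.12 in 1623, 8.20 in 1922 and 3.42 in 3622. Its remote zone level was 2.81, 1.31, 2.80, 4.62, 3.74 and 4.55 CPM in the same order. The border zone library of animal 1922 stood above all others, with 169 reads, and the remaining border zone libraries lay within the remote range. The border zone was higher in 4 of 6 animals, the log2 fold change was 0.21 with a standard error of 0.37 (adjusted p = 0.759 by edgeR), and without animal 1922 it was -0.13. For CDH19 and SCN7A these standard errors leave room for differences in either direction, and the data do not show that the regions were alike.

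Set side by side, 5 of the 6 fitted differences were above 0, with a median log2 fold change of 0.79 beside 0.04 over all genes tested. At an unadjusted p under 0.05, 4 of the 6 would pass, NGFR, NCAM1, PMP22 and GFRA3, where 24.7% of all genes do. None of the 6 had border zone libraries that all lay above the remote ones, a pattern found in 1.99% of genes. A border zone level above the remote level in 6 of 6 animals, as in NGFR and NCAM1, was found in 11.7% of genes. Scaling to library totals in place of TMM moved the median of all genes to 0.32 and led to 4 calls among the 6 (NGFR, PMP22, GFRA3 and NCAM1, adjusted p 0.0290 to 0.0374 for the last 3), where 11.2% of all genes were called. The Wald test of DESeq2 called NGFR and NCAM1, and 10.7% of all genes.

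**Figure D2:**
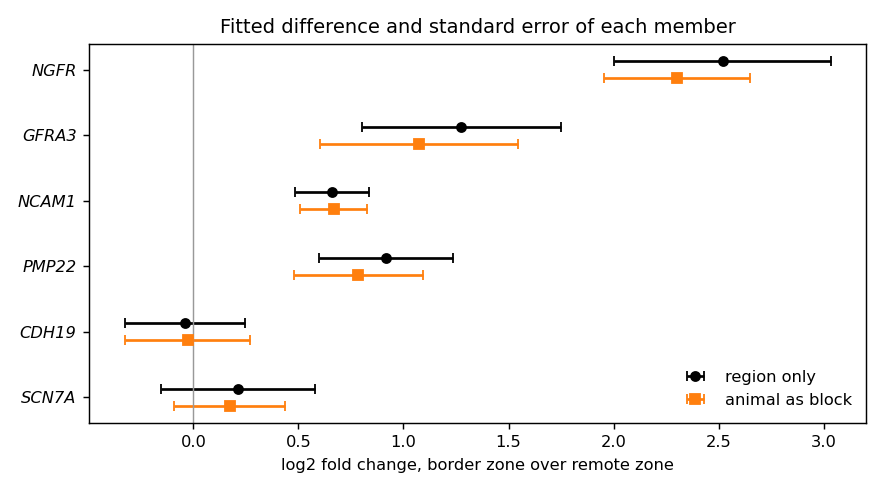
Log2 fold change of border zone over remote zone for the 6 genes, with bars of 1 standard error, from the edgeR fit with region as the only term (black circles) and with the animal as a block (orange squares). NGFR lies at 2.52 and 2.30, NCAM1 at 0.66 and 0.67 with the shortest bars, and CDH19 and SCN7A have bars that span 0.

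Levels of different genes were compared per kb of exon. On the scale of median CPM per kb, NCAM1 was the most abundant of the 6, at 32.3 in the border zone and 21.0 in the remote zone. PMP22 followed at 8.85 and 4.92. In the remote zone GFRA3 and NGFR came next at nearly the same level, 1.03 and 1.02, while in the border zone NGFR was at 5.03 and GFRA3 at 2.38. SCN7A, at 0.491 and 0.506, and CDH19, at 0.286 in both regions, were the lowest. All NCAM1 values lay above those of the other genes in the same region, and in the remote zone the same was true of PMP22 against the remaining 4. The other neighbours in this order had ranges over animals that overlapped, so that their order is not separated by the spread.

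The balance between the genes within a library is given as a description. The count of NGFR relative to that of CDH19 was higher in the border zone in 6 of 6 animals, at 3.96 to 26.3 against 0.923 to 2.82. The same held for NGFR relative to SCN7A, at 1.81 to 16.4 against 0.708 to 1.37, so that the ranges of the regions did not overlap for either ratio. Relative to PMP22, which is itself high in the border zone of animal 1022, NGFR was higher in 6 of 6 animals as well, at 0.356 to 1.09 against 0.0684 to 0.337. Relative to NCAM1 it was also higher in 6 of 6 animals, but the ranges overlapped, at 0.0213 to 0.187 against 0.00778 to 0.0415. PMP22 relative to CDH19 was higher in the border zone in 5 of 6 animals, as was GFRA3 relative to CDH19, with animal 1322 the exception for both.

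Across the 12 libraries the genes fell into different patterns. The correlations are of log2 CPM over libraries that share animals and composition, and are descriptions without a test. PMP22 and GFRA3 ran most closely together (Pearson r = 0.97, and 0.96 after the mean of each region was removed). NGFR followed PMP22 with r = 0.82 and GFRA3 with r = 0.78. CDH19 and SCN7A were correlated at 0.66, and at 0.67 after the region means were removed, whereas CDH19 and NCAM1 were at -0.10. NGFR and NCAM1 were at 0.73 over all libraries and at 0.24 after the region means were removed.

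Of 11725 genes with a symbol, those most like each member by the same measure were named. For CDH19 the nearest was CMTM5 (r = 0.91), followed by NDNF and SLC35F1 (0.79 and 0.78). SCN7A was most like ARHGEF2 (0.86), and TMEM178A was at 0.77. For NGFR they were OSBPL6 (0.98), the complement gene C4A (0.96) and GPR173 (0.96), each of them called higher in the border zone without the animal as a block and not with it. For PMP22 they were the complement inhibitor gene SERPING1, PCDHGA4 and C1QTNF1, all at 0.98. For GFRA3 they were PMP22, HOMER3 and CSRP1, all at 0.97, and for NCAM1 GADL1 (0.94), FGD6 (0.93) and the intermediate filament gene NES (0.91). C4A and PCDHGA4 have close copies in the genome, and their counts are uncertain where reads fit several copies.

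Other genes of nerve and glia were read from 6 lists. Over all genes tested, 2.07% were called and the median log2 fold change was 0.04. The share of all genes with a fitted difference above 0 was not counted. Of 20 genes of the Schwann cell lineage and its support, 17 had an identifier and 13 were tested; 2 were called higher, none lower, and the median log2 fold change was 0.74, with 11 of 13 above 0. MATN2, a matrix protein that Schwann cells and fibroblasts secrete, rose by 1.49 on the log2 scale with a standard error of 0.23 (adjusted p = 0.0159 by edgeR), from 12.2 to 23.5 CPM in the remote zone to 28.8 to 70.3 CPM in the border zone, without overlap. SEMA3B, a secreted semaphorin, rose by 1.51 with a standard error of 0.28 (adjusted p = 0.0276). With the animal as a block neither was called (adjusted p = 0.0554 and 0.0564). The defining genes of the lineage were not called: SOX10 had a log2 fold change of 0.94 (adjusted p = 0.214) and ERBB3 of 0.74 (0.275). Without the border zone library of animal 1022 these were 0.36 and 0.43, and the median of the list was 0.43. GAP43, a protein of growing axons and of repair Schwann cells, did not pass the filter, with 82 reads in all 12 libraries.

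Of the myelin list, 10 of 17 genes with an identifier were tested and none was called; the median log2 fold change was 0.46, and 3 had an unadjusted p under 0.05, which 24.7% of all genes have. Without animal 1022 the median was 0.22. MBP, found on the cytoplasmic face of myelin, had a log2 fold change of -0.30 (adjusted p = 0.745 by edgeR). EGR2, the transcription factor that drives myelination, came close to being called, at 2.21 on the log2 scale with a standard error of 0.54 (adjusted p = 0.0501), and was higher in the border zone in 6 of 6 animals. It was called by the Wald test of DESeq2 (adjusted p = 0.00225), with library totals (0.0202) and without animal 1322 (0.0424). EGR2 is also an early response gene of immune and stromal cells.

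Of the repair list, 7 of 14 genes were tested, 1 was called higher and none lower, and the median was 0.50, with 0.29 without animal 1322 and 1.20 without animal 1022. The gene called was TNC, tenascin C, a matrix protein that fibroblasts of healing tissue make in quantity and that is also found in damaged nerves. It was at 17.4 to 501 CPM in the border zone and at 1.02 to 6.19 CPM in the remote zone, a log2 fold change of 5.31 with a standard error of 0.95 (adjusted p = 0.0253 by edgeR, 0.0564 with the animal as a block), and without the border zone library of animal 1022 it was 3.58. JUN, the transcription factor of the repair state, was at 92.8 to 266 CPM in the border zone and 87.1 to 248 CPM in the remote zone, with a log2 fold change of 0.04 (adjusted p = 0.945). The sialyltransferases that attach polysialic acid to NCAM1 had fitted differences of opposite sign: ST8SIA2 had a log2 fold change of 1.74 (adjusted p = 0.0661) at 0.194 to 1.82 CPM over all libraries, and ST8SIA4 of -0.09 (0.787) at 9.20 to 17.8 CPM, with a sign that turned to 0.22 under library totals.

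Among neurotrophins, GDNF family ligands and their receptors, 11 of 18 genes were tested, 1 was called higher and none lower, with a median of 0.28. SORCS2, a sortilin family receptor that pairs with NGFR to bind pro-neurotrophins, was at 6.36 to 48.1 CPM in the border zone and 0.339 to 1.98 CPM in the remote zone, without overlap. Its log2 fold change was 4.02 with a standard error of 0.54 (adjusted p = 0.00875 by edgeR), and with the animal as a block it was 3.81 (adjusted p = 0.0209), the only gene of the 6 lists called in both fits. Its call was lost without animal 1323, 1623 or 3622 (adjusted p = 0.0544, 0.0686 and 0.0526). SORT1, the related sortilin, had a log2 fold change of 0.51 (adjusted p = 0.333). NRTN, a ligand of the GDNF family, was lower in the border zone in 6 of 6 animals, at 8.89 to 50.8 CPM against 50.4 to 132 CPM, and was not called (log2 fold change -1.25, adjusted p = 0.0796 by edgeR), although the Wald test of DESeq2 called it (0.0127). NRTN was named after its values were seen. NTRK2, the receptor for BDNF, had a log2 fold change of 1.93 (adjusted p = 0.0861) and was higher in 6 of 6 animals. NTRK3, a related receptor, did not pass the filter, with 59 reads in all libraries together. It was also higher in 6 of 6, at 0.146 to 0.628 CPM against 0 to 0.134 CPM. The lowest border zone value lies within the 0.0883 to 0.201 CPM that a count of 0 allows, so the ranges are not separated.

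ARTN, the ligand of GFRA3, did not pass the filter, with 23 reads in all 12 libraries and a count of 0 in 6 of them. RET, the signalling receptor that GFRA3 needs, was at 2.52 to 6.28 CPM over all libraries, with a log2 fold change of 0.01 (adjusted p = 0.989 by edgeR). The sister co-receptors had log2 fold changes of -0.32 for GFRA1 (adjusted p = 0.551) and 1.01 for GFRA2 (0.225). NRG1, the axonal ligand of ERBB3, did not pass the filter, with 70 of its 123 reads in 1 library and a count of 0 in 3. It was higher in the border zone in 5 of 6 animals, at 0 to 2.31 CPM against 0 to 0.0969 CPM.

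Neuronal genes were the list with the fewest genes measured: 6 of 27 were tested and none was called, 13 never exceeded 10 counts in a library, and the median log2 fold change over the 6 tested was -0.16. The sign of that median was not stable: it was 0.12 with library totals and 1.03 with no filter on low counts, where the median of all genes was 0.75. Of the 21 genes under the filter, 5 were higher in the border zone in at least 5 animals and 10 in at most 1. UCHL1, a neuronal ubiquitin hydrolase that other cells also make, was the exception in size, with 4.77 to 16.3 CPM in the border zone and 0.461 to 6.82 CPM in the remote zone and a log2 fold change of 2.40 (adjusted p = 0.0619 by edgeR). It was called by the Wald test of DESeq2 (adjusted p = 0.00525) and with library totals (0.0201). Of the axon guidance list, 14 of 16 genes were tested, and all 14 fitted differences were above 0. Their median was 0.87, beside 0.04 over all genes, and 2 were called, where 2.07% of all genes were. With the animal as a block ROBO2, a guidance receptor, was at -0.10 in place of 0.10, and without animal 1022 the median of the list was 0.39. SEMA3F, a repellent of sympathetic and sensory axons, had a log2 fold change of 1.56 (adjusted p = 0.0320) and EPHA3, an ephrin receptor also found in mesenchyme, of 2.22 (adjusted p = 0.0338), both without overlap of the regions. Neither was called with the animal as a block (adjusted p = 0.0703 and 0.0798).

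**Figure D3:**
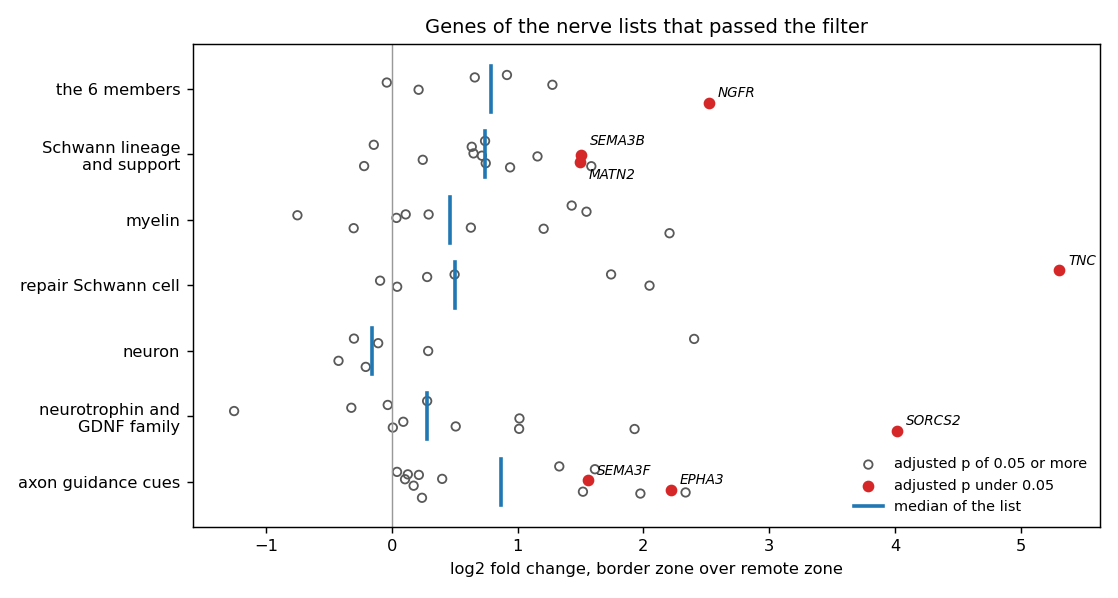
Log2 fold change of border zone over remote zone for each tested gene of the 6 members and of the 6 nerve lists, with the median of each list as a blue bar and called genes as filled red points; the vertical scatter in a row has no meaning. The called genes NGFR, SEMA3B, MATN2, TNC, SORCS2, SEMA3F and EPHA3 all lie to the right of 0, and the neuron list has its median at -0.16.

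Markers of other cell types were summed in the same libraries. The summed level of 10 fibroblast and matrix genes was 3736 to 76391 CPM in the border zone and 1227 to 3126 CPM in the remote zone, higher in 6 of 6 animals, and 8 of the 10 were called higher, of which POSTN (adjusted p = 0.0410) was the 1 called with the animal as a block. The 10 macrophage genes summed to 139 to 1546 against 127 to 269 CPM, higher in 5 of 6 animals with none called, and the 10 smooth muscle and pericyte genes to 692 to 3169 against 469 to 777 CPM, also in 5 of 6 with none called. The 8 cardiomyocyte genes with an identifier summed to 9968 to 52768 CPM in the border zone and 45266 to 79227 CPM in the remote zone, lower in 6 of 6 animals with none called. Endothelial genes were at 401 to 580 against 298 to 689 CPM. The part of these shifts in the differences of NGFR, NCAM1, PMP22, GFRA3 and the called genes of the lists was not tested. The 9 markers of natural killer and cytotoxic cells summed to 7.99 to 74.1 CPM in the border zone and 9.04 to 34.5 CPM in the remote zone, higher in the border zone in 3 of 6 animals, and none was called. Of the 6 tested, 3 had a fitted difference above 0 and 3 below. NKG7 had a border zone median of 4.52 CPM, reached 40.0 CPM there, and was higher in the border zone in 5 of 6 animals. Its log2 fold change was 1.63 (adjusted p = 0.158 by edgeR), and 0.78 with the animal as a block. GNLY reached 22.6 CPM and was higher in 2 of 6. PRF1 was also higher in 2 of 6 (log2 fold change -0.24), and GZMB in 0 of 6 (-1.41). KLRD1 and NCR1 were at 0 in 7 and 4 libraries. The part of natural killer and cytotoxic cells in the NCAM1 level was not tested. Melanocyte genes, which share a neural crest origin with Schwann cells, were at 1.79 CPM or less apart from MITF, with MLANA at 0 in 9 libraries and TYRP1 in 8. Adipocyte genes summed to 105 to 446 against 264 to 511 CPM, a sum made up mostly of PLIN4 and FABP4. ADIPOQ, the adipocyte hormone adiponectin, went the other way, at 0 to 26.8 CPM in the border zone and 0 to 0.955 CPM in the remote zone, higher in 5 of 6 animals, and was called with the animal as a block (adjusted p = 0.0476) and not without it (0.0540). PLIN1, a lipid droplet protein of adipocytes, reached 10.4 CPM in the border zone and 0.594 CPM in the remote zone (adjusted p = 0.0693 by edgeR). The single genes of these marker lists were named after their values were seen.

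**Figure D4:**
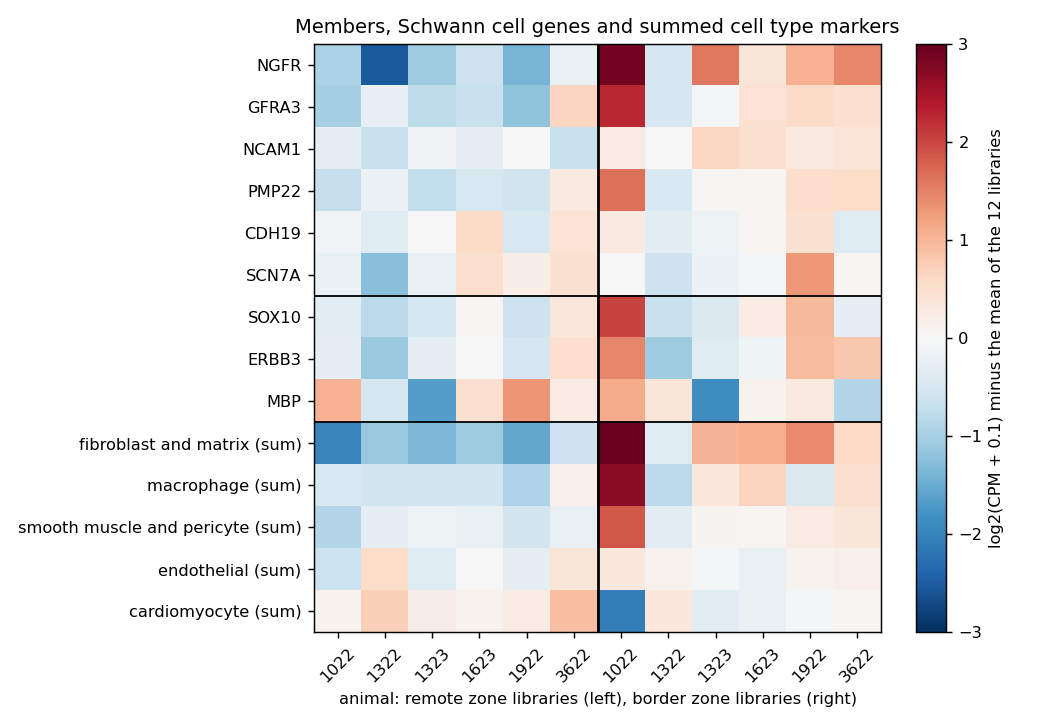
Log2(CPM + 0.1) of the 6 genes, of 3 Schwann cell and myelin genes and of summed marker lists, each row as the difference from its mean over the 12 libraries, with remote zone libraries to the left of the line and border zone libraries to the right; colours stop at 3 in either direction. NGFR is red in 5 of the 6 border zone libraries, CDH19 stays pale throughout, and the border zone library of animal 1022 is the deepest red for NGFR, GFRA3, PMP22 and the fibroblast sum and the deepest blue for the cardiomyocyte sum.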

How the data were processed

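RNA was measured in 12 libraries, 1 border zone and 1 remote zone library from each of 6 pigs. The authors made poly(A)-selected, nondirectional libraries, sequenced paired reads of 150 bp, aligned them to Sscrofa11.1 with STAR 2.7.10a and deposited raw counts per gene from featureCounts 2.16.1 on Ensembl release 113, without normalization. How reads that fit several places were counted is not given in the sources used here. Region and animal came from the labels. The labels do not give the arm of an animal, and it was not inferred.

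The 6 genes and all lists were chosen with earlier results of these data known. Symbols were matched through a table that names 15623 of 35682 identifiers; S100B, SOX2, GPM6B, MAL, NEFM, NEFH, CALCA, MYH7, TTN and VWF found no identifier by it and were not analysed here. The genes named are the 6 members, every list gene that was called, a set of defining genes listed whatever their values, and the 3 genes most correlated with each member. A few genes that this rule names are not reported here.

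The analysis used R 4.3.3, edgeR 4.0.16 (filterByExpr, TMM, robust quasi-likelihood test, region as the only term), limma 3.58.1 and DESeq2 1.42.0, and Python 3.11.15. Standard errors were taken as log2 fold change over the square root of F. Correlations used log2 CPM with a prior count of 2. CPM per kb used exon lengths of the RefSeq annotation of Sscrofa11.1, in which no other gene overlaps the span of a member. A test planned for members under the filter was not needed, since all 6 passed. The counts do not separate PCR duplicates from molecules. The steps were tested on simulated data.

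Same-numbered libraries are from the same pig. They were treated as pairs in the within-animal comparisons and in the fit with the animal as a block. The main fit, with region as the only term, did not use the pairing. After subtracting each region's mean, the 2 libraries of a pig had a mean r over genes of 0.35 (lowest -0.03, animal 1022; highest 0.57, animal 1323), and 4 of 6 pairs exceeded 0.1. Alternatives were a replicate block for the animal, the Wald test of DESeq2, scaling by its size factors or by library totals, removing the filter or asking for 10 counts in each library, dropping mitochondrial genes, leaving out each pig in turn, and leaving out the border zone library of animal 1022 or 3622.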

Additional observations from a re-analysis of the deposited data

Results flagged for a closer look

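Of 40 groups of 6 libraries, 4 held a library set apart from the rest of its region, where chance alone would set apart about 1 in 20. For SCN7A, the border zone library of animal 1922 was at a log2 CPM of 3.05, with the next at 1.81. The other 3 were all the border zone library of animal 1022. Its summed myelin genes were at a log2 CPM of 7.72, with the next library at 6.57. Its summed smooth muscle and pericyte genes were at 11.63, with the next at 10.13, and its summed cardiomyocyte genes were at 13.28, below the next at 15.05. NGFR, GFRA3 and PMP22 were highest in that library as well, but the gap to the next library did not reach the limit for any of them.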

How the results depend on the processing

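Against 287 genes called, the count was 41 with the animal as a replicate block, 1476 with the DESeq2 Wald test, 1551 with library totals, 139 with no filter, 149 with at least 10 counts in every library and 156 without the border zone library of animal 3622. With each animal left out it ranged from 0 (without 1623 or 3622, with 2662 and 2448 genes at an unadjusted p under 0.05) to 519 (without 1322), and was 163 without 1022, 3 without 1323 and 15 without 1922. Of the 6 members 1 was called; the count was 2 with the DESeq2 Wald test, 4 with library totals and 0 with no filter (NGFR adjusted p = 0.0615), and 0 to 1 with an animal left out. NGFR was called in both the fit with and the fit without the block, and with the border zone library of animal 3622 left out its adjusted p was 0.0496. Over the 15 alternatives the adjusted p of NGFR ran from 6.53e-05 to 0.135 and its log2 fold change from 1.97 to 2.90.

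Of 90 alternative values of the 6 members, 75 had the same sign and the same call, 6 lost the call, 4 gained it and 5 changed sign; for 28 other genes whose difference or call is given these were 325, 56, 17 and 11 of 409. The block lost the calls of TNC, MATN2, SEMA3B, SEMA3F and EPHA3, and so did leaving out animal 1323, 1623, 1922 or 3622 (adjusted p between 0.0526 and 0.141); without 1022 SEMA3B (0.0511) and EPHA3 (0.0798) were lost too, and with no filter TNC (0.0658), POSTN (0.102) and C4A (0.0615). The block also lost OSBPL6, C4A and GPR173 (adjusted p 0.0679 to 0.0703), and leaving out animals lost these 3 and POSTN. EGR2, UCHL1, NTRK2 (adjusted p = 0.0149 and 0.0418) and ST8SIA2 (0.0162 and 0.0231) gained a call with the DESeq2 Wald test and with library totals, as did ADIPOQ (0.0335 and 0.0284) and PLIN1 (0.00366 and 0.0319); ADIPOQ (0.0426) and PLIN1 (0.0499) also gained it without animal 1322. The changes of sign were small values: CDH19 at 0.25 (library totals) and 0.03 (without the border zone library of animal 3622), RET at -0.029 (DESeq2), -0.031 (DESeq2 size factors), -0.044 (no filter) and -0.10 (without the border zone library of animal 3622), ST8SIA4 at 0.22 (library totals), and ROBO2 at -0.10 (replicate block). With an animal left out, CDH19 ranged from -0.25 to 0.11, SCN7A from -0.13 to 0.40, ROBO2 from -0.23 to 0.23, JUN from -0.17 to 0.14 (0.17 without the border zone library of animal 3622) and RET from -0.092 to 0.073. Without animal 1022, GFRA3 was at 0.56 and PMP22 at 0.48. With no filter the list medians include low genes and all genes had a median of 0.75; the median was then 1.03 for the neuron list (0.12 with library totals) and 0.95 for the neurotrophin and GDNF list. Without animal 1022 the median was 0.42 for the Schwann cell list, 0.22 for myelin, 0.39 for axon guidance and 1.20 for repair, which was 0.29 without animal 1322; the neurotrophin and GDNF median was 0.17 without animal 3622, 0.08 without its border zone library and 0.43 without that of animal 1022. The cause of these changes was not tested. Low counts of CDH19, SCN7A and the neuronal genes limit what could be seen for them.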
